A study of Drosophila melanogaster with 164 samples.

Results

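The 10 autophagy genes Atg1, Atg13, Atg101, Atg14, Atg9, Atg18a, Atg5, Atg7, Atg8a and Atg16 of Drosophila melanogaster were chosen by name, and all 10 were found among the 7414 genes of the deposited table. They were measured in adults and larvae of 41 lines of the Drosophila Genetic Reference Panel (DGRP), inbred lines derived from a wild population. The lines were picked to carry no chromosome inversion and to span the panel's range of starvation resistance. Whole bodies were used at both stages, from adults frozen 4 days after collection at emergence, and third-instar larvae taken while still feeding. Each line and stage had 2 replicates, and the study asked how far the effects of genotype on expression are shared across metamorphosis. Neither group carried a transgene or a treatment, and each inbred line stands for 1 genotype. Larvae were not sexed, and the labels give no sex for adults.

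Autophagy encloses cytoplasm in a membrane vesicle, the autophagosome, and delivers it to the lysosome for breakdown. The Atg1 kinase complex starts the process under nutrient stress, a lipid kinase complex that contains Atg14 marks the site, Atg9 vesicles and Atg18a help the membrane grow, and a ubiquitin-like conjugation system that includes Atg7, Atg5 and Atg16 attaches Atg8a to that membrane. In the fly, starvation induces autophagy in the larval fat body, and the steroid hormone ecdysone induces it there and in the midgut as metamorphosis begins.

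Total counts per library ranged from 2748964 to 20421026 in 82 adult libraries and from 2407244 to 26429404 in the 80 larval libraries used. No value of the table lay below 11 counts, and the lowest count of a member ran from 29 for Atg7 to 1161 for Atg8a. Over 308 genes that vary strongly between adult lines, 77 of 82 larval columns correlated best with the adults of their own line. The exceptions were DGRP787 replicate 1, identical to DGRP491 replicate 2, replicate 2 of DGRP882, of DGRP897 and of DGRP911, which as labelled matched one another's lines, and DGRP367 replicate 1. The identical pair was left out, and the other 4 were kept under their labels. No sequencing pool held both stages (7 adult and 12 larval pools), so stage and pool cannot be told apart.

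Levels are given as CPM, counts scaled to a common library total, and between genes as CPM per kb of exon. Per length, Atg8a stood far above the other members at both stages, with 297 ± 41.3 CPM per kb in adults (SD, n = 82 libraries) and 328 ± 66.0 CPM per kb in larvae (SD, n = 80 libraries). In adults the order then ran Atg16, Atg101, Atg18a, Atg14, Atg13, Atg9, Atg1, Atg5 and Atg7, from 24.9 ± 9.43 CPM per kb for Atg16 to 7.40 ± 1.37 CPM per kb for Atg7. The ranges of 1 SD around the means of neighbours in this order overlapped, except Atg8a with Atg16 and Atg1 (15.6 ± 2.31 CPM per kb) with Atg5 (10.0 ± 1.51 CPM per kb). In larvae Atg9 came after Atg8a, at 28.0 ± 5.47 CPM per kb, followed by Atg18a, Atg16, Atg5, Atg14, Atg101, Atg13, Atg7 and Atg1, the last at 7.75 ± 1.71 CPM per kb. There the range of Atg8a lay apart from that of Atg9, and those of the other neighbours overlapped. Without lines DGRP181 and DGRP427, Atg16 averaged 23.1 ± 3.24 CPM per kb in adults and 15.6 ± 2.34 CPM per kb in larvae, which placed it behind Atg101 in adults and behind Atg5 in larvae.

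**Figure D1:**
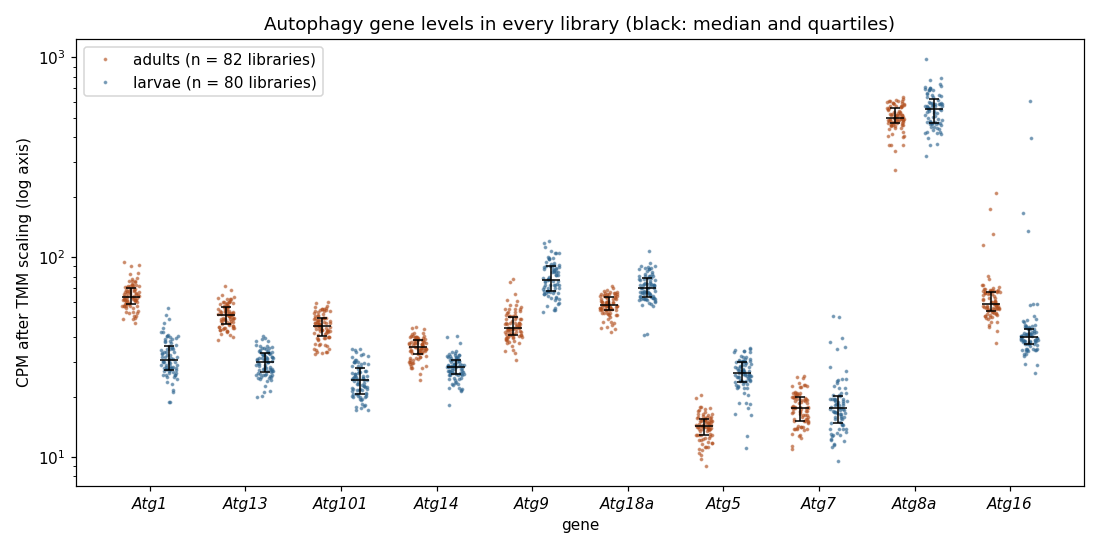
Level of each autophagy gene in every library, in CPM after TMM scaling on a log axis, with adults left of larvae. Points are libraries, and black marks give the median and quartiles. Atg1, Atg13 and Atg101 sit higher in adults, Atg9 and Atg5 sit lower, and 4 Atg16 points per stage lie far above the rest.

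Between stages the members did not move as a block. The kinase complex genes Atg1, Atg13 and Atg101, together with Atg14 and Atg16, were higher in adults, Atg9, Atg18a, Atg5 and Atg8a were lower, and Atg7 did not pass the test. In the edgeR test with line as a block, 5 of 10 members were thus higher and 4 lower, at an adjusted p under 0.05. Among all genes 44.9% were higher and 47.8% lower, so a stage difference as such does not set these genes apart. The median log2 fold change of adults over larvae was 0.12 for the members and -0.03 for all genes. No member passed the test for a fold above 2, which 26.6% of all genes passed in either direction, and 0 members had an unadjusted p under 0.05 there in edgeR or DESeq2.

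Atg1 (FBgn0260945, BDGP6 3L:12784429-12805116, minus strand) encodes the kinase that starts autophagosome formation. Its levels were 47.0 to 95.1 CPM in adult libraries (median 63.4) and 18.7 to 55.4 CPM in larval libraries (median 30.6). Of the 82 adult libraries, 71 lay above every larval library. The log2 fold change was 1.02 ± 0.04 (SE, edgeR adjusted p = 2.6e-53), the largest of the members, and all 41 lines were higher in adults. Atg13 (FBgn0261108, 3R:8349815-8352817, plus strand), the partner that activates the kinase, ranged from 38.5 to 71.7 CPM in adults (median 51.4) and from 19.9 to 40.4 CPM in larvae (median 30.0). The stages barely overlapped, with 80 of 82 adult libraries above every larval one, and the log2 fold change was 0.79 ± 0.03 (SE, edgeR adjusted p = 2.5e-50).

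Atg101 (FBgn0030960, X:18791668-18793517, plus strand) binds Atg13 and stabilises it. It ranged from 32.8 to 59.7 CPM in adults (median 45.5) and from 17.2 to 34.7 CPM in larvae (median 24.3), with 76 of 82 adult libraries above all larval ones. Its log2 fold change was 0.88 ± 0.03 (SE, edgeR adjusted p = 9.4e-51). Like Atg1 and Atg13, it was higher in adults in each of the 41 lines. The scaffold gene of the same complex, Atg17, which was not among the members, had a log2 fold change of 0.82 ± 0.04 (SE, edgeR adjusted p = 2.9e-43). All measured genes of the kinase complex were therefore higher in adults.

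Atg14 (FBgn0039636, 3R:29116391-29118390, plus strand) directs the Vps34 lipid kinase to autophagy. Its libraries ran from 24.3 to 44.8 CPM in adults (median 35.4) and from 18.3 to 40.5 CPM in larvae (median 28.2). The stages overlapped widely, with 6 adult libraries above every larval one, although 37 of 41 lines were higher in adults. The log2 fold change was 0.33 ± 0.03 (SE, edgeR adjusted p = 1.8e-18). Its exons share 61 bases with yem on the opposite strand, and whether strand was used in counting is not given in the sources used here. Of 6 other genes of the lipid kinase complex and phosphoinositide turnover, 3 were higher in adults, 2 lower and 1 did not pass. The highest was EDTP, a phosphoinositide phosphatase, at 0.67 ± 0.03, and the lowest Uvrag, the subunit of the endosomal form of the kinase complex, at -0.20 ± 0.03 (log2 fold changes with SE).

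Atg9 (FBgn0034110, 2R:16294400-16297232, plus strand) encodes the transmembrane protein whose vesicles seed the growing membrane. It ran opposite to the kinase complex, with 30.7 to 77.4 CPM in adults (median 44.2) and 53.2 to 120 CPM in larvae (median 77.2). Of the 82 adult libraries, 68 lay below every larval library, and all 41 lines were lower in adults. The log2 fold change was -0.78 ± 0.04 (SE, edgeR adjusted p = 7.9e-45). Atg18a (FBgn0035850, 3L:8186857-8191118, plus strand), which binds the lipid that the Vps34 kinase makes, had 42.4 to 72.0 CPM in adults (median 57.6) and 41.0 to 107 CPM in larvae (median 70.1). The ranges overlapped, and 39 of 41 lines were lower in adults, with a log2 fold change of -0.30 ± 0.03 (SE, edgeR adjusted p = 3.0e-21). The 4 other measured genes of membrane supply were all higher in adults, unlike these members, with the lipid transfer gene Atg2 highest at 0.79 ± 0.04 and Atg18b, a relative of Atg18a, lowest at 0.21 ± 0.04 (log2 fold changes with SE).

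Atg5 (FBgn0029943, X:7314622-7323770, minus strand) is joined to Atg12, and the conjugate acts with Atg16 in lipidating Atg8a. It ranged from 9.06 to 20.3 CPM in adults (median 14.2) and from 11.1 to 34.9 CPM in larvae (median 26.3). All 82 adult libraries lay below the larval median, and all 41 lines were lower in adults. The log2 fold change was -0.87 ± 0.03 (SE, edgeR adjusted p = 2.6e-52), the lowest of the members. Its partner Atg16 (FBgn0039705, 3R:29827281-29835101, minus strand) moved the other way. It had 37.0 to 209 CPM in adults (median 58.3) and 26.4 to 605 CPM in larvae (median 39.8), and 38 of 41 lines were higher in adults. The log2 fold change was 0.49 ± 0.04 (SE, edgeR adjusted p = 2.9e-20), and it was 0.56 without lines DGRP181 and DGRP427.

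Atg7 (FBgn0034366, 2R:18620466-18625044, minus strand), the activating enzyme of the conjugation system, had 11.0 to 25.3 CPM in adults (median 17.6) and 9.59 to 50.9 CPM in larvae (median 17.5). The medians were close, the larval range was the wider, and lines split almost evenly, with 21 higher and 20 lower in adults. The log2 fold change was -0.09 ± 0.06 (SE, edgeR adjusted p = 0.12). Atg8a (FBgn0052672, X:10764878-10768338, minus strand), the ubiquitin-like protein attached to the membrane, ran from 272 to 638 CPM in adults (median 498) and from 322 to 981 CPM in larvae (median 553). It was lower in adults in 31 of 41 lines, by a log2 fold change of -0.13 ± 0.04 (SE, edgeR adjusted p = 0.00061). Without replicate 1 of every line and stage, the change was -0.09 and missed the threshold (adjusted p = 0.074). Among the 4 other conjugation genes, Atg12 was highest at 0.41 ± 0.04 and Atg3, the conjugating enzyme for Atg8a, lowest at -0.60 ± 0.02 (log2 fold changes with SE). In that list 1 was higher in adults, 2 were lower and 1 did not pass.

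**Figure D2:**
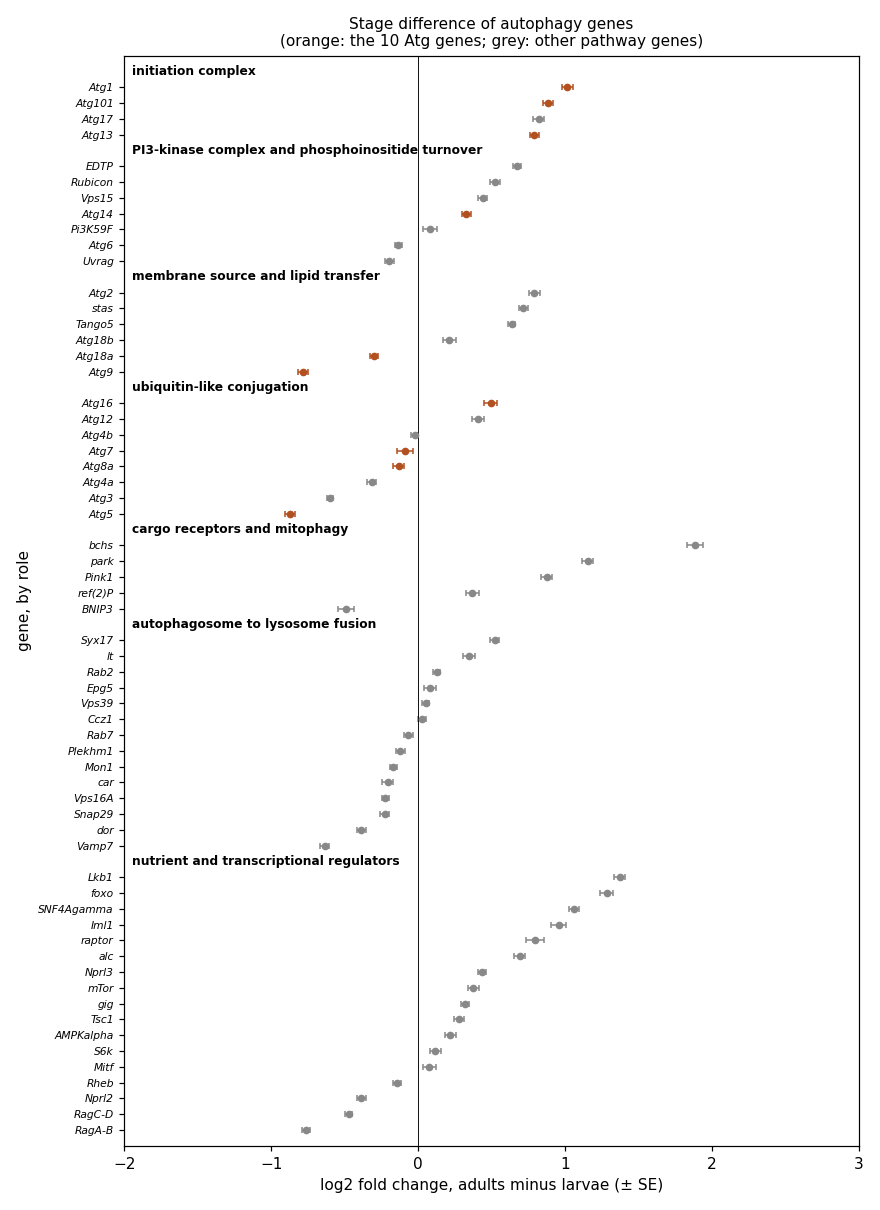
Log2 fold change of adults over larvae with its SE for the 10 Atg genes (orange) and the 51 other autophagy pathway genes of the table (grey), by role. Genes of the kinase complex lie between 0.79 and 1.02, while the fusion genes centre near 0 with a median of -0.09.

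Of 54 other pathway genes listed, 51 were in the table, and 29 of them were higher in adults, 17 lower and 5 did not pass. Their median log2 fold change was 0.21. Among 5 cargo receptor and mitophagy genes, 4 were higher and 1 lower. The highest was bchs, whose protein helps clear aggregates, at 1.88 ± 0.06, and the lowest BNIP3, a mitophagy receptor, at -0.49 ± 0.06. Of 14 genes for fusion with the lysosome, 4 were higher, 8 lower and 2 did not pass, with the autophagosomal SNARE gene Syx17 at 0.52 ± 0.03 and its lysosomal partner Vamp7 at -0.64 ± 0.03 as extremes. Of 17 nutrient and transcriptional regulators, 12 were higher, 4 lower and 1 did not pass. They ranged from Lkb1, which activates the energy sensor AMPK, at 1.37 ± 0.04 to RagA-B, a GTPase that relays amino acid supply to TORC1, at -0.76 ± 0.03 (log2 fold changes with SE).

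Whole bodies hold all tissues, and fewer cells of a type and less RNA per cell cannot be told apart. Marker sums differed widely between the stages. The 5 midgut markers summed to 2849 to 21409 CPM in adults and 13290 to 76420 CPM in larvae, and the 5 muscle markers to 3773 to 11406 CPM in adults and 8332 to 42094 CPM in larvae. The 4 of 5 neuron markers in the table summed to 506 to 2141 CPM in adults and 121 to 470 CPM in larvae, and 3 oenocyte markers to 19566 to 52139 CPM in adults and 1241 to 4973 CPM in larvae. The 4 of 6 fat body markers in the table overlapped, at 2978 to 10889 CPM in adults and 4083 to 16694 CPM in larvae. The 2 of 6 testis markers summed to 1421 to 5349 CPM in adults and 7.53 to 573 CPM in larvae, and the 1 of 4 salivary gland markers in the table ranged from 27.8 to 72.6 CPM in adults and from 19.7 to 56.5 CPM in larvae. None of the 6 ovary and germline markers was among the genes of the table. The table holds no value below 11 counts at either stage, so their absence does not tell whether adults held ovaries. The male-specific RNA roX1, 1 of 2 in its list, ranged from 247 to 1472 CPM in adults (median 784) and from 47.8 to 742 CPM in larvae (median 230). The part of tissue makeup in the stage differences was not tested. With roX1 as a covariate, the members called before kept their direction and their call, and Atg7 passed as lower in adults (log2 fold change -0.39, edgeR adjusted p = 0.0029). Since roX1 itself differed between the stages, this fit can tell stage from roX1 only in part. With pools as replicates, the counts of members stayed at 5 higher and 4 lower. For every member except Atg7 and Atg8a, the 7 adult pool means lay apart from the 12 larval ones. For Atg16 the gap was narrow, with the lowest adult pool at 5.895 and the highest larval pool at 5.874 log2 CPM. Larval pools 7, 18, 1 and 6, each with a library of DGRP427 or DGRP181, lay at 5.693 to 5.874. The highest of the other larval pools was at 5.431 log2 CPM. The share of all genes with pools apart was not computed, so this does not set the members apart.

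Lines differed in 6 of 10 members in adults and in 5 of 10 in larvae, in edgeR tests over 40 line coefficients at an adjusted p under 0.05. Among all genes 68.5% passed in adults and 46.6% in larvae. In adults the members that passed were Atg16 (4.0e-13), Atg7 (1.0e-06), Atg9 (0.00013), Atg1 (0.0023), Atg18a (0.011) and Atg101 (0.022), given as edgeR adjusted p. In larvae they were Atg16 (2.7e-23), Atg5 (0.00067), Atg18a (0.023), Atg9 (0.030) and Atg7 (0.030). Without lines DGRP181 and DGRP427, Atg18a did not pass in adults (adjusted p = 0.051), and Atg9 and Atg18a alone passed in larvae. Without the 4 larval libraries that did not match their own line, Atg1 passed in larvae (0.044) and Atg9 did not (0.051). With roX1 as a covariate, all 10 members passed in adults. In the main setting 5075 of 7414 genes passed, so the count over all genes could not rise by over 1.5 times. Its staying within that limit does not tell whether the rise is particular to the members, which was not tested.

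Broad-sense heritability, here the share of the variance of a single library that lies between lines, had a median of 0.39 in adults and 0.23 in larvae over the 10 members, against 0.39 in adults and 0.29 in larvae over all genes. Atg16 was highest at both stages, at 0.82 ± 0.18 in adults and 0.92 ± 0.15 in larvae (jackknife SE over lines). Atg7 had 0.71 ± 0.09 in adults and 0.18 ± 0.17 in larvae, where the SD between replicates of a line was 0.41 on the log2 scale, against 0.14 in adults. Atg5 showed the reverse order, at 0.22 ± 0.16 in adults and 0.59 ± 0.23 in larvae. Atg14 had the lowest value in larvae, 0.06 ± 0.16, and Atg8a in adults, 0.13 ± 0.17.

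**Figure D3:**
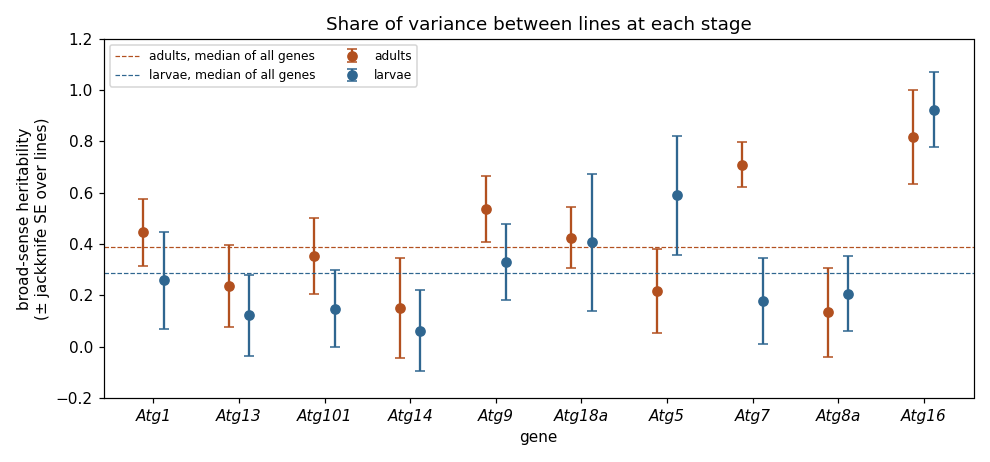
Broad-sense heritability of each autophagy gene at each stage, with its jackknife SE over lines and, as dashed lines, the median of all genes (0.39 in adults and 0.29 in larvae). Atg16 lies highest at both stages, and Atg7 differs most in favour of adults.

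A pair of lines stood apart in Atg16. In DGRP427, replicates 1 and 2 had 209 and 174 CPM in adults and 395 and 605 CPM in larvae. In DGRP181 they had 131 and 116 CPM in adults and 167 and 135 CPM in larvae. Every library of these lines lay above every library of the other 39 lines, which ran from 37.0 to 80.4 CPM in adults (median 57.7) and from 26.4 to 58.6 CPM in larvae (median 39.4). Over those 39 lines the highest line mean was 1.57 times the lowest in adults and 1.60 times in larvae, against 4.21 and 15.7 times over all 41. Without the pair, the edgeR line test still passed in adults (adjusted p = 0.0053) but not in larvae (adjusted p = 0.095). DGRP427 also went against the usual stage order, with a log2 difference of adults minus larvae of -1.36, the lowest of the 41 lines. DGRP181 was lower in adults as well, and 3 lines were so in all.

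**Figure D4:**
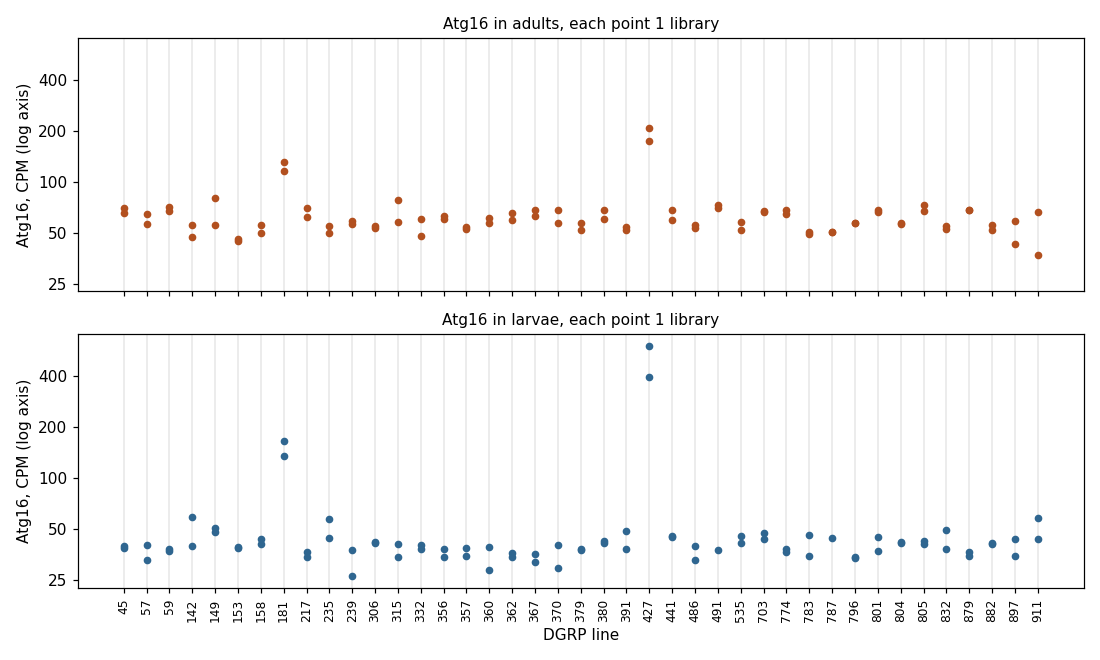
Atg16 in every library by DGRP line, in CPM on a log axis shared by adults (top) and larvae (bottom). DGRP427 and DGRP181 stand above the other 39 lines at both stages, and both are higher in larvae than in adults, DGRP427 by more.

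DGRP181 was at the other end for Atg5. Its replicates had 9.06 and 11.2 CPM in adults and 12.7 and 11.1 CPM in larvae, the lowest line mean at both stages. The next larval line was DGRP427, at 17.5 CPM, and the median line stood at 27.3 CPM in larvae and 13.8 CPM in adults. The larval line test of Atg5 did not pass without DGRP181 and DGRP427 (edgeR adjusted p = 0.16). The lines highest in Atg16 were thus the lowest in larval Atg5, a match seen after the values were known and given no test.

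For Atg18a the line apart was DGRP805, with 47.2 and 44.6 CPM in adults and 41.0 and 41.2 CPM in larvae, lowest at both stages, while the next larval line, DGRP380, averaged 59.5 CPM. DGRP535 was highest at both stages, with 68.6 and 63.1 CPM in adults and 71.5 and 107 CPM in larvae, so its larval replicates were far apart. For Atg9, DGRP897 was highest in adults at 74.9 and 65.4 CPM, and DGRP370 was lowest there at 33.8 and 30.7 CPM. In larvae, DGRP805 was highest in Atg9, at 118 and 99.5 CPM, and DGRP362 lowest, at 54.2 and 55.8 CPM.

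Adult Atg7 ran from 13.0 and 11.0 CPM in DGRP801 to 25.3 CPM in both libraries of DGRP380, so the replicates of these lines sat close together. Larval Atg7 was highest in DGRP379, whose replicates were 50.9 and 24.7 CPM, and lowest in DGRP332, at 14.5 and 9.59 CPM. Atg1 was highest in DGRP367 at both stages, with 91.5 and 82.6 CPM in adults and 37.5 and 55.4 CPM in larvae, of which the library with 37.5 CPM is among those that did not match their own line. DGRP703 was its lowest line in adults, at 57.1 and 47.0 CPM, and DGRP235 in larvae, at 18.8 and 18.7 CPM. Atg101 was lowest in DGRP703 (36.5 and 33.7 CPM) and highest in DGRP535 (54.3 and 59.7 CPM) in adults, and its larval line means ran from 18.9 CPM in DGRP911 and DGRP832, the first with a library that did not match its own line, to 33.6 CPM in the single library of DGRP491.

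Atg13, Atg14 and Atg8a passed the line test at neither stage. Adult line means of Atg13 lay between 40.7 CPM in DGRP357 and 65.1 CPM in DGRP153, and larval ones between 22.1 CPM in DGRP804 and 38.4 CPM in DGRP356. Those of Atg14 lay between 27.2 CPM in DGRP787 and 42.4 CPM in DGRP315 in adults, and between 22.0 CPM in DGRP380 and 36.5 CPM in DGRP796 in larvae. By the mean of log2 CPM, Atg8a was lowest in adults in DGRP59, whose replicates read 272 and 570 CPM and averaged 421 CPM, while DGRP801 averaged 402 CPM. In DGRP59, the library at 272 CPM also had the lowest roX1 of all adult libraries, at 247 CPM. The adult line highest in Atg8a was DGRP787, at 605 CPM in each replicate. In larvae Atg8a was highest in DGRP796, whose replicates were 981 and 531 CPM, and lowest in the single library of DGRP491, at 322 CPM.

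Whether line differences were the same at both stages was tested by the line-by-stage interaction in edgeR. It passed for 3 of 10 members, Atg16, Atg7 and Atg9, while 43.1% of all genes passed. The adjusted p was 8.0e-10 for Atg16, 0.0072 for Atg7 and 0.044 for Atg9, and Atg1 came next at 0.051 (0.034 without the 4 larval libraries that did not match their own line). In Atg7 the log2 difference of adults minus larvae ran from -1.05 in DGRP367 to 0.66 in DGRP882, but each of these lines has a larval library that did not match its own line. In Atg9 it ran from -1.24 in DGRP805 to -0.25 in DGRP832, below 0 in each line. Atg9 did not pass without DGRP181 and DGRP427 (adjusted p = 0.065), without the 3 larval libraries that matched one another's lines (0.11) or in limma-voom (0.054), and Atg7 did not pass in limma-voom (0.055).

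Adult and larval line means were then compared by Pearson's r over lines, with permutation p adjusted over all genes. Over 41 lines, 3 members passed with a positive r, Atg16, Atg18a and Atg5, where 17.2% of all genes did. A negative r passed for Atg14, and 0.0135% of all genes, Atg14 alone, passed in that direction. The median r was 0.21 for the members and 0.19 for all genes. Each of the 3 positive calls by r was lost without the lines set apart. For Atg16, whose pair of lines forms a cluster of its own, the remaining 39 gave an r of -0.27 (permutation p = 0.098, adjusted p = 0.29), with a rho of -0.32 (permutation p = 0.047). That p of rho was not adjusted over all genes, and r was -0.16 with 2 more lines left out.

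For Atg18a, r was 0.51 (permutation p = 6.0e-04, adjusted p = 0.0075) and rho 0.50 (permutation p = 0.0010, adjusted p = 0.017). Without DGRP805, r was 0.39 (adjusted p = 0.084) and rho 0.46 (permutation p = 0.0028). It was 0.34 with the 2 lines most distant in larvae left out and 0.45 with pool means removed (adjusted p = 0.030). For Atg5, r was 0.49 (permutation p = 0.0014, adjusted p = 0.014) and rho 0.38 (permutation p = 0.015, adjusted p = 0.094). Without DGRP181, r was 0.30 (adjusted p = 0.21), and with pool means removed it was 0.26 (adjusted p = 0.28). Both calls by r were thus lost without 1 line, DGRP805 for Atg18a and DGRP181 for Atg5. Without that line, rho moved from 0.50 to 0.46 for Atg18a and from 0.38 to 0.33 for Atg5.

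For Atg14, lines high in adults tended to be low in larvae in the main setting, with an r of -0.41 (permutation p = 0.0082, adjusted p = 0.048) and a rho of -0.45 (permutation p = 0.0034, adjusted p = 0.039). It was -0.46 with the 2 lines most distant from the larval median left out and -0.37 with pool means removed (adjusted p = 0.089). With replicate 2 left out in every line and stage, r was 0.10. Among the alternatives, the call was kept under 4 and lost under 8, and the sign turned under 1. Leaving out each line in turn gave r from -0.45 without DGRP158 to -0.34 without DGRP787, a line represented by a single larval library. Atg14 also had the lowest larval heritability of the members and passed the line test at neither stage. The 6 other members had r between 0.04 (Atg13) and 0.30 (Atg9), with adjusted p from 0.18 to 0.89.

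**Figure D5:**
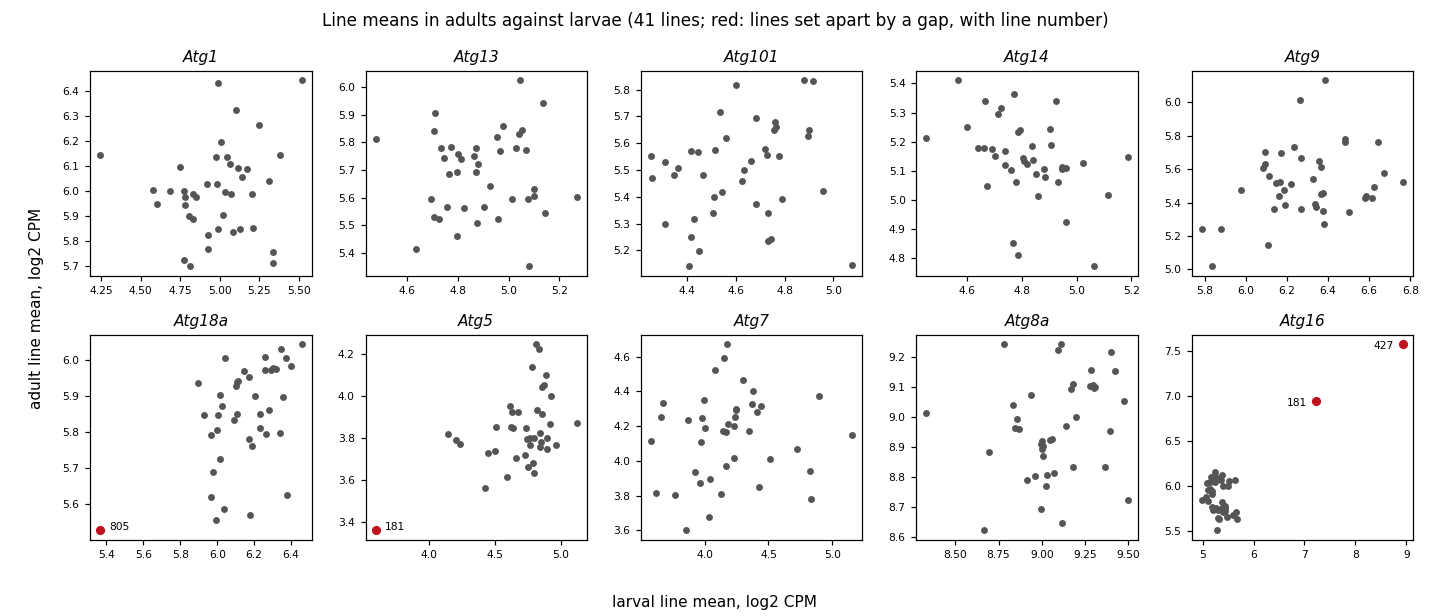
Adult against larval line means in log2 CPM for each autophagy gene, 1 point per line. Red points with line numbers are lines set apart by a gap of over 0.3 of the range: DGRP805 for Atg18a, DGRP181 for Atg5, and DGRP181 and DGRP427 for Atg16. The other panels form single clouds, and that of Atg14 slopes down.

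The RNA roX1 is made in males, but its level was not checked here against the sex of the flies, which the labels do not give. The difference between the replicates of a line in a gene was compared with the same difference in roX1, a relation added after seeing the data. In adults 6 of 10 members passed at an adjusted p under 0.05, beside 40.3% of all other genes. Atg101 had the highest r of the members, 0.72 (permutation p = 1e-05, the smallest possible, adjusted p = 0.00013, 41 lines), with a rho of 0.73 (permutation p = 1e-05). It was 0.69 without the 2 lines farthest from the median and 0.69 with pool means removed. No adult line had both replicates in 1 pool, so there is no value within pools. Replicates with more roX1 therefore had more Atg101. The r was 0.52 for Atg8a, 0.43 for Atg13, 0.42 for Atg1 and 0.40 for Atg5, and -0.51 for Atg14, where replicates with more roX1 had less (adjusted p from 0.0040 to 0.025). With pool means removed, r was 0.49 for Atg8a, 0.40 for Atg13, 0.24 for Atg1, 0.33 for Atg5 and -0.46 for Atg14. The value for Atg8a dropped to 0.18 without the 2 farthest lines, DGRP59 among them. In larvae, over 39 lines, no member passed, beside 3.62% of all other genes. There Atg18a had an unadjusted permutation p under 0.05, with an r of -0.33 (adjusted p = 0.30).

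Members were only loosely tied to one another across lines. Over the 45 pairs, the median r of line means was 0.06 in adults and 0.07 in larvae, with 31 pairs above 0 in adults and 26 in larvae. Over all pairs of genes, the median was close to 0 and 49.3% lay above 0 in adults and 49.5% in larvae. The highest pair in adults was Atg1 with Atg9 (r = 0.52), a pair with an r of -0.01 in larvae. Atg1 with Atg18a had 0.45 in adults and 0.37 in larvae. In larvae the highest pair was Atg5 with Atg8a (0.40, against 0.08 in adults), and the lowest was Atg5 with Atg16 (-0.59, against -0.25 in adults). Without DGRP181 and DGRP427 this last pair had -0.07 in adults and -0.08 in larvae. These values are descriptions over 41 line means that share libraries.

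The gene most like each member, by r over 82 line means centred on their stage, differed for every member. For Atg1 it was Eip75B, an ecdysone-induced nuclear receptor gene, with an r of 0.71 over all line means, 0.78 in adults and 0.68 in larvae. Atg101 was most like chico, which encodes the insulin receptor substrate (0.64, with 0.63 in adults and 0.66 in larvae). Atg8a was most like Rab1, a GTPase gene of transport from the endoplasmic reticulum (0.69, with 0.77 in adults and 0.64 in larvae). For Atg13 the gene was Vap33, a tether protein of the endoplasmic reticulum, at 0.46. Atg16 was most like CG14642, at 0.70 over all line means and 0.33 without DGRP181 and DGRP427. The remaining matches were Atg14 with CG9581 (0.58), Atg7 with Sclp (0.57), Atg9 with CG12576 (0.56), Atg5 with CG7878 (0.53, but 0.09 without DGRP181 and DGRP427) and Atg18a with CG33494 (0.51). Each match was picked as the highest r over all other genes of the table, so a high r was built in and was not tested.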

How the data were processed

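Poly-A RNA of whole larvae and whole adults was sequenced from stranded libraries. The authors deposited unnormalised read counts for each gene, with a column for each library. The tools FastQC, Trimmomatic and STAR and the builds BDGP6 and dm6 appear, with no version, per the submitters' processing notes. The counting program and its strand setting are not given in the sources used here. Lines, stages, replicate numbers and sequencing pools were read from the sample labels. The labels call the replicates biological, and each joined the flies of a pair of vials.

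All fits ran on the whole table of 7414 genes. edgeR 4.0.16 (R 4.3.3) with TMM factors and the quasi-likelihood F test gave the stage test (line as a block), a test against a fold of 2, the line tests within each stage and the line-by-stage interaction, each with Benjamini-Hochberg adjustment over all genes at 0.05. Larval replicate 1 of DGRP787 and larval replicate 2 of DGRP491 had the same count for every gene and were dropped, so 162 libraries entered. No further filter on low counts was applied. Printed CPM are counts scaled to the usual common total by the TMM-adjusted library size, and CPM per kb divides them by the merged exon length in the Ensembl BDGP6 annotation, which named 7349 of the 7414 identifiers. Line means are means of log2 CPM with a prior count of 2. Heritability is the intraclass correlation of the 2 replicates within lines, with a jackknife SE over lines. Pearson's r across lines was tested for every gene with 100000 two-sided permutations, whose smallest p is 1e-05. Lines were set apart where a gap between neighbouring line means exceeded 0.3 of the range at either stage. Line statistics were computed in Python 3.11.15 with numpy 2.4.6, numba 0.67.0, pandas 2.3.3, scipy 1.17.1 and matplotlib 3.10.9. The edgeR stage fit and the permutation test of r were also run on simulated data, and the other tests were not.

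Alternatives were DESeq2 1.42.0 with its size factors and test, limma 3.58.1 (voom, and trend on pool means), a filter at 10 CPM, a prior count of 0.5, each replicate number left out, a replicate block, all 164 columns, larval libraries left out, a pool factor, roX1 as covariate and Spearman's rho. The sets without 4 larval libraries and without lines DGRP181 and DGRP427, and the relation with roX1, were added after the data had been seen. Same-numbered replicates of the 2 stages did not deviate together: over 39 lines, the median correlation of their deviations was 0.049, and 14 lines exceeded 0.1. The 10 genes and the pathway and marker lists were chosen with earlier results of these data known. Named genes are the 10 members, the highest and lowest gene by fold change in each pathway list, the gene most like each member, each member's highest and lowest lines and roX1.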

Additional observations from a re-analysis of the deposited data

Results flagged for a closer look

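The line differences of 3 autophagy genes were not the same at both stages, by the edgeR line-by-stage interaction test over 40 coefficients with Benjamini-Hochberg adjustment over 7414 genes. For Atg16 the adjusted p was 8.0e-10. Without DGRP181 and DGRP427, the lines with the highest levels at both stages, it was 0.0021. For Atg7 the adjusted p was 0.0072, and the call was lost under 2 of 9 alternatives. The extremes of Atg7 lay in different lines: DGRP380 was the highest line in adults, and DGRP379 in larvae. For Atg9 the adjusted p was 0.044, close to the threshold, and it lay between 0.054 and 0.12 under 6 of 9 alternatives. No cause was tested for any of the 3.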

How the results depend on the processing

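Stage results were the steadiest. The counts of 5 higher, 4 lower and 0 past 2-fold members stayed within 1.5 times under all 12 alternatives, and of 120 values for single members, 118 kept direction and call, the exceptions being Atg8a and Atg7 as given. With DESeq2, the sets of larval libraries or the filter, no count of members moved by over 1.5 times. In adults, 10 members differed between lines with roX1 as covariate, against 6. The count over all genes, 5075 of 7414 in the main setting, could not rise by over 1.5 times, so it gives no comparison for a rise in adults. In larvae, 3 did so with pool as a factor and 2 without DGRP181 and DGRP427, against 5. With pool as a factor, 2288 of all genes passed in larvae, against 3453. Under the other 9 alternatives, the larval count over all genes stayed within 1.5 times of 3453. By limma-voom 1 member had an interaction, against 3, while the count over all genes stayed within 1.5 times of 3199 under all 9 alternatives.

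Correlations between stages moved most. Against 4 members called, 2 were called by Spearman's rho or with pool means removed, 1 without replicate 1 or 2 (1 to 1), without the 2 farthest lines or without DGRP181 and DGRP427, and 0 in the largest group of lines. Of all genes, 1275 passed, against 782 by rho, 804 without replicate 1, 629 without replicate 2, 679 without the 2 farthest lines and 836 in the largest group. Under the other 8 alternatives, pool means removed and the set without DGRP181 and DGRP427 included, the count stayed within 1.5 times of 1275. The sign of r turned when a replicate number was left out, with r from -0.125 to 0.358 for Atg1, from -0.0712 to 0.0490 for Atg13, from -0.0415 to 0.407 for Atg101, from -0.396 to 0.105 for Atg14 and from -0.0208 to 0.127 for Atg7. It also turned for Atg13 without DGRP181 and DGRP427 (-0.0477), and for Atg16 by rho (-0.14) and without those lines, in the largest group or without the 2 farthest lines (-0.27 each). The cause was not tested.

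With a replicate block, 5 members were higher and 4 lower, 7 differed between lines in adults and 5 in larvae, and 2 had an interaction. Among all genes 2260 had one, against 3199. Depth limits Atg7 and Atg5 most, with counts down to 29 and 40 in a library, and 2 replicates per line limit every line mean.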
